A study of Sus scrofa with 6 samples.

Results

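The genes FSHB, CGA and TSHB encode subunits of the pituitary glycoprotein hormones, and they were found by name in each tissue's table, as 3 of 19465 listed genes with 1 row each. LHB, the beta subunit of luteinizing hormone, was not found by name and was not analysed here. Hypothalamus, pituitary and ovary RNA came from primiparous sows of a Landrace x Large White strain, sampled in a normal estrus or in an anestrus attributed to inactive ovaries. The labels give 3 sows per state, do not give their age, and do not say whether RNA of several sows was pooled into a library. There was 1 library per tissue and state, 6 in all. State is the only difference that the labels name between the 2 libraries of a tissue. It cannot be told apart from differences between sows or in the handling of the libraries. "Higher" and "lower" below refer to the anestrous library relative to the estrous library of the same tissue. No difference within a tissue has a replicate check, so none was tested there, and each 95% interval covers counting error only.

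The hormones of this family are pairs of an alpha and a beta subunit. CGA encodes the alpha subunit, which follicle-stimulating hormone (FSH), luteinizing hormone and thyroid-stimulating hormone (TSH) have in common, and the beta subunit gives each hormone its receptor. FSHB, the beta subunit of FSH, is made in gonadotrophs, where pulses of GnRH from the hypothalamus and activin raise its expression and inhibin from the ovary lowers the activin signal. TSHB, the beta subunit of TSH, is made in thyrotrophs, where TRH raises it and thyroid hormone lowers it. CGA is expressed in both cell types. In the deposited tables the genes have in common the Gene Ontology terms hormone activity and extracellular region, held by 47 and 231 genes respectively.

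Libraries held between 15314325 and 17384789 reads assigned to genes. Tissue labels were checked against marker genes. The summed level of 7 hypothalamic markers was 2452 and 2104 reads per 1000000 assigned reads (RPM) in the hypothalamus libraries (estrous and anestrous), at most 88.6 in the pituitary and at most 1.81 in the ovary. The summed level of 7 ovarian markers was 13726 and 1366 in the ovary libraries and at most 18.2 elsewhere, and the 7 anterior pituitary genes found of 9 listed summed to 236868 and 241954 in the pituitary. In bulk tissue, fewer cells of a type and less RNA per cell cannot be told apart.

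In the pituitary the subunits differed in opposite directions, with FSHB much higher, CGA moderately higher and TSHB lower in anestrus. FSHB (ENSSSCG00000013328) gave 8442 reads in the estrous and 32208 in the anestrous library, or 496 and 1853 RPM. Its normalised count, that is, reads scaled by the library's size factor, was 8201 and 33155, a ratio of 4.04 (95% interval 3.95 to 4.14) and a log2 fold of 2.02 with a pseudocount of 1. The share of assigned reads that fell on this gene was thus 0.0496% in estrus and 0.185% in anestrus.

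CGA (ENSSSCG00000025434) gave 193057 and 274359 pituitary reads, or 11349 and 15782 RPM. The ratio of its normalised counts was 1.51 (1.50 to 1.51), a log2 fold of 0.59, so the common alpha subunit was higher in anestrus by a smaller factor than the FSH beta subunit. Its reads made up 1.13% of the estrous and 1.58% of the anestrous library. The 3 genes together took 1.21% and 1.78% of pituitary reads.

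TSHB (ENSSSCG00000006749) gave 4783 reads in estrus and 2322 in anestrus, or 281 and 134 RPM. Its normalised counts of 4646 and 2390 made it 1.94-fold lower (1.85 to 2.04), a log2 fold of -0.96. It lay just inside a 2-fold limit, which is a log2 fold of 1 in size. With the library totals made equal it was 2.11-fold lower, and with totals made equal after leaving out the 10 most read genes 2.02-fold lower, so its place on either side of that limit depended on the scaling.

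**Figure D1:**
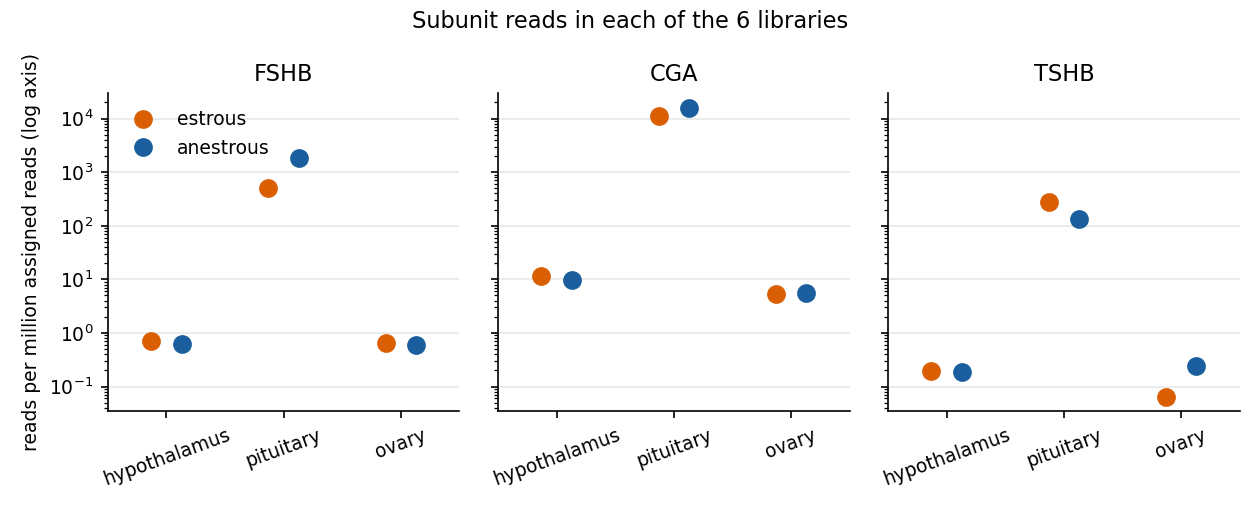
Each point is 1 library, and the log axis gives RPM of FSHB, CGA and TSHB by tissue, with estrous libraries in orange and anestrous libraries in blue. In the pituitary FSHB and CGA are higher and TSHB is lower in anestrus, while the hypothalamus and ovary points lie far below.

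Among 10720 pituitary genes with a mean normalised count of at least 50, 129 (1.2%) had a log2 fold of 1 or more and 204 (1.9%) one of -1 or less, here called 2-fold higher or lower. With equal library totals the split was 98 higher and 277 lower. FSHB was the only one of the 3 subunits past the 2-fold limit at the deposited scaling. Only 10 of these genes had a higher log2 fold than FSHB, and none of the 2608 genes with a mean of at least 1000 did. CGA was exceeded by 492 of the 10720 genes and by 56 of the 2608. TSHB had 225 genes below it among the 10720 and 23 among the 2608. The median log2 fold over the 10720 genes was 0.01.

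**Figure D2:**
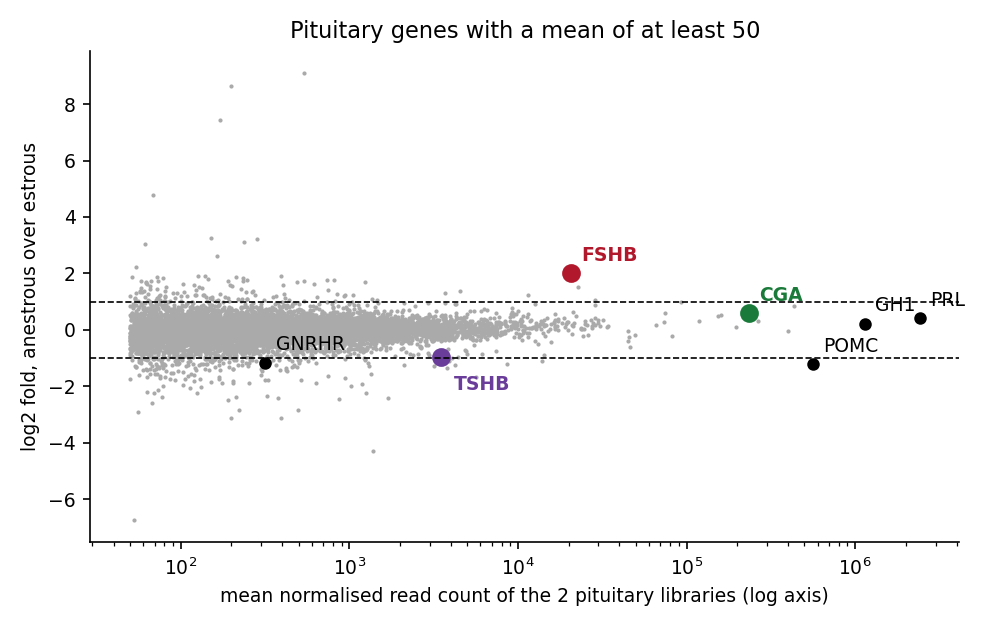
Each grey point is a pituitary gene with a mean normalised count of at least 50; the horizontal log axis is that mean, the vertical axis is the log2 fold of anestrous over estrous, and dashed lines mark 2-fold. FSHB stands above all other genes with a mean of at least 1000, and TSHB lies next to the lower dashed line.

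The authors' deposited table gave adjusted p-values for the pituitary of 0.000128 for FSHB, 1 for CGA and 0.103 for TSHB. Its unadjusted p-values were 2.59e-07, 0.556 and 0.000873. These compare 1 library with 1 and say nothing of variation between sows. In the authors' deposited tables all 3 genes had an adjusted p of 1 in the hypothalamus and in the ovary.

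A ratio of 2 genes within a library does not depend on how the libraries were scaled. It is a ratio of reads, not of transcripts, because transcript lengths were not used. The estrous pituitary held 4.37 FSHB reads per 100 CGA reads, and the anestrous pituitary 11.7, a 2.68-fold higher ratio (2.62 to 2.75). TSHB went the other way, with 2.48 reads per 100 CGA reads in estrus and 0.846 in anestrus, so that its ratio was 2.93-fold lower (2.78 to 3.08). Per TSHB read there were 1.77 FSHB reads in estrus and 13.9 in anestrus, so the FSHB to TSHB ratio was 7.86-fold higher (7.44 to 8.31).

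**Figure D3:**
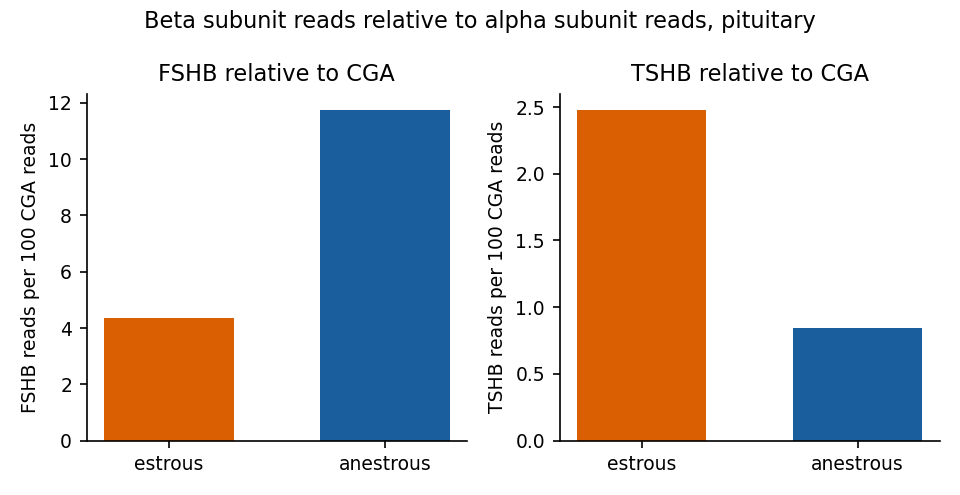
Bars give reads of FSHB (left) and TSHB (right) per 100 reads of CGA in each pituitary library, with axes that start at 0. FSHB stands at 4.37 and 11.7, and TSHB at 2.48 and 0.846.

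The other members of the family were a minor part of the pituitary reads. GPHA2, which encodes the alpha subunit of thyrostimulin, gave 105 and 147 pituitary reads and was 1.48-fold higher (1.15 to 1.92). It had 0 reads in the other 4 libraries. A count of 0 there allows up to 3 reads, or between 0.183 and 0.196 RPM. GPHB5, the thyrostimulin beta subunit, had 0 reads in both pituitary libraries, which allows up to 0.176 RPM in estrus and 0.173 in anestrus, and 1 read in the estrous hypothalamus.

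The remaining anterior pituitary hormone genes also differed in both directions. The prolactin gene PRL had a ratio of 1.33 and the growth hormone gene GH1 one of 1.17, whereas POMC, the corticotropin precursor, was 2.32-fold lower (2.31 to 2.33). Measured against PRL reads, CGA was 1.13-fold higher (1.13 to 1.14), FSHB 3.04-fold higher (2.97 to 3.11) and TSHB 2.59-fold lower (2.46 to 2.72). Measured against GH1 reads, CGA was 1.29-fold higher (1.28 to 1.30), FSHB 3.46-fold higher (3.38 to 3.54) and TSHB 2.27-fold lower (2.16 to 2.39). Measured against POMC reads, TSHB was 1.19-fold higher (1.14 to 1.26), so TSHB was lower by a smaller factor than POMC.

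The receptors of GnRH and TRH were both lower in the anestrous pituitary. GNRHR, the receptor through which GnRH acts on gonadotrophs, had 454 estrous and 190 anestrous reads, a 2.25-fold lower level (1.90 to 2.69), opposite to FSHB. There were 18.6 FSHB reads per GNRHR read in estrus and 170 in anestrus, so that this ratio was 9.12-fold higher (7.67 to 10.9). TRHR, the TRH receptor of thyrotrophs, gave 42 and 14 reads and had a log2 fold of -1.44, the same direction as TSHB. It was 2.83-fold lower, with a wide interval of 1.52 to 5.61. The TSHB to TRHR ratio was 1.46 times the estrous one, with an interval of 0.778 to 2.89 that includes equal ratios.

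In the hypothalamus, GNRH1, the GnRH precursor gene, gave 70 and 28 reads, and KISS1, the gene of the GnRH neuron stimulator kisspeptin, gave 139 and 23. GNRH1 was 2.42-fold lower (1.54 to 3.90), KISS1 5.86-fold lower (3.75 to 9.54) and TAC3, the neurokinin B gene, 1.43-fold lower (1.28 to 1.60). TRH, the releasing hormone gene of the thyroid axis, gave 390 and 528 reads and was 1.40-fold higher (1.22 to 1.60), while SST (somatostatin) was 1.14-fold higher (1.05 to 1.24). Of 6 genes for hypothalamic factors and inputs, all of them over a mean of 10 in that tissue, KISS1 and GNRH1 passed 2-fold downwards and no gene passed it upwards, that is, 2 and 0 genes. The background over that floor was 2.61% lower and 1.99% higher. The hypothalamic marker genes differed between these libraries as well. Of the 7 markers, AVP and OXT, the vasopressin and oxytocin precursors, were lower by factors of 30.6 and 6.79. HCRT (orexin) and PMCH (melanin-concentrating hormone) were higher by factors of 2.52 and 2.02, and SYT1, GAD1 and SLC32A1, genes of neurons, were higher by 1.51, 1.32 and 1.78. The part of these marker differences in the GNRH1, KISS1 and TRH values was not tested. GNRH1 reads in the pituitary went the other way, at 4 in estrus and 26 in anestrus, a ratio of 6.89 (2.39 to 27.2).

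Genes that act in gonadotrophs were measured for 11 of 14 listed names, and NR5A1, PITX1 and LHX3 were not found by name. Of 10 pituitary rows over a mean of 10, 1 lay past 2-fold upwards, 1 past it downwards and 8 were within it, with a median log2 fold of 0.27 against 0.00 over all genes above that floor. The background for a mean of at least 10 was 2.27% higher and 4.23% lower. The higher one was NR0B1, a nuclear receptor that represses steroidogenic factor targets, with 55 and 196 reads and a 3.78-fold higher count (2.79 to 5.19). The lower one was GNRHR. GATA2, a transcription factor of gonadotrophs and thyrotrophs, was 1.48-fold higher (1.26 to 1.74). FOXL2, which acts with SMAD proteins on FSHB, was 1.49-fold lower on 212 and 134 reads (1.20 to 1.87). EGR1, which mediates GnRH action on the luteinizing hormone beta gene, had a log2 fold of 0.28. ESR1 (estrogen receptor alpha) occurs at 2 places in the tables, with log2 folds of 0.35 (1028 and 1236 reads) and -0.06 (21 and 19 reads), so its reads may be divided between copies.

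The activin, inhibin and bone morphogenetic protein system, which controls FSHB, was represented by 19 of 24 listed genes over a mean of 10. None passed 2-fold upwards and 1 passed it downwards, 9 lay above and 10 below 0, and the median log2 fold was -0.05. Over the same floor 2.27% of all pituitary genes passed 2-fold upwards and 4.23% downwards. The lower gene was BAMBI, a decoy receptor that dampens signalling by this family, with 442 and 173 reads and a 2.41-fold lower count (2.02 to 2.89). BMP7, a ligand, was 1.77-fold lower (1.53 to 2.05). ACVR1B, a type I activin receptor, was 1.58-fold higher (1.42 to 1.77) and TGFBR3 (betaglycan), the co-receptor of inhibin, 1.57-fold higher (1.32 to 1.87). SMAD3, which carries the activin signal to the nucleus, had a log2 fold of 0.50, SMAD2 one of -0.14 and SMAD4 one of -0.20. FST, the activin-binding protein follistatin, gave only 45 and 30 reads, and INHA, the inhibin alpha subunit, 58 and 66. INHBA, an activin subunit gene, gave 4 and 6 pituitary reads, too few for a comparison. INHBB, FSTL3 and BMP2 were not found by name, so INHBB, the other listed activin subunit gene, was not measured.

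Of 20 pituitary rows for GnRH receptor signalling, 2 passed 2-fold downwards, none upwards, and the median log2 fold was -0.03. The background for a mean of at least 10 was again 4.23% lower and 2.27% higher. ATF3, a stress-responsive transcription factor that GnRH also induces, was 3.14-fold lower on 173 and 52 reads (2.29 to 4.37). RGS2, which shortens signalling by the G protein class that GNRHR uses, was 2.33-fold lower on 12370 and 5017 reads (2.25 to 2.41). RGS4, of the same family, was 1.63-fold higher (1.43 to 1.85). MAPK8, a stress kinase, occurs at 2 places with opposite log2 folds of -0.60 and 0.57. FOS, JUN and JUNB, subunits of the AP-1 transcription factor, had log2 folds of 0.05, -0.04 and 0.02. GNAQ, MAPK3, FOSB, JUND and NR4A1 were listed but not found by name.

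Of 17 pituitary rows for thyrotrophs and thyroid hormone feedback, 4 passed 2-fold downwards, none upwards and 13 were within it. The list's median log2 fold was 0.04, and RXRA, DIO2, SLC16A10, SSTR5, TEF and MTNR1A were not found by name. The pituitary background over the floor of 10 was 4.23% lower and 2.27% higher. The largest difference was in SLCO1C1, a thyroxine transporter, with 327 and 87 reads and a 3.55-fold lower count (2.79 to 4.55). The others were named after their values were seen. They were SSTR2, a somatostatin receptor (75 and 20 reads), TRHR (42 and 14), and 1 of 2 rows for EYA3 (27 and 12 reads). EYA3 is a transcriptional coactivator of TSHB, and its other row was 1.43-fold lower on 1133 and 746 reads (1.31 to 1.57). THRB, the thyroid hormone receptor that carries feedback on TSHB, was 1.33-fold higher (1.26 to 1.40) and THRA 1.24-fold higher (1.17 to 1.32). POU1F1, which specifies the thyrotroph, somatotroph and lactotroph lineages, gave 1005 and 793 reads, a log2 fold of -0.26. IGSF1, a membrane glycoprotein whose loss causes central hypothyroidism, was listed with the activin system and differed little, with 47378 and 43071 reads and a log2 fold of -0.05.

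Genes for folding, glycosylation and secretion of the subunits were represented by 18 of 28 listed names, each within 2-fold. Of these, 13 lay above 0 and 5 below, with a median log2 fold of 0.25. Over the floor of 10, 4.23% of all pituitary genes passed 2-fold downwards and 2.27% upwards. The listed glycan-modifying enzyme genes B4GALNT3, B4GALNT4, CHST8, ST6GAL1 and ST3GAL6 were not found by name, so that step was not measured. P4HB, SCG2 and PCSK1 were also among the names not found. With equal library totals each log2 fold in the pituitary was 0.12 lower. CALR, a chaperone of glycoproteins, was 1.55-fold higher (1.52 to 1.58) and PDIA4, a disulfide isomerase, 1.50-fold higher (1.45 to 1.55). CHGB (chromogranin B), a protein of secretory granules, gave 319367 and 540881 reads and was 1.79-fold higher (1.79 to 1.80), whereas CHGA (chromogranin A) was 1.53-fold lower (1.51 to 1.55).

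**Figure D4:**
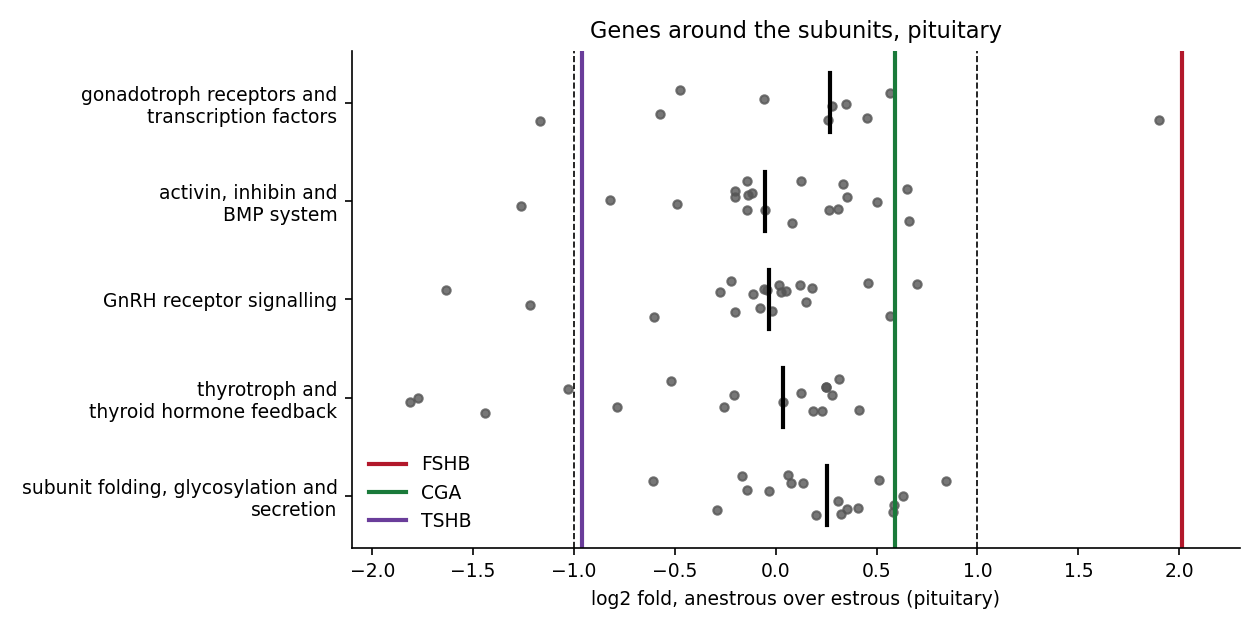
Each grey point is a gene with a mean of at least 10 in the pituitary, placed by its log2 fold of anestrous over estrous and grouped by list, with the list's median as a black bar, 2-fold as dashed lines and the subunit genes as coloured lines. List medians lie between -0.05 and 0.27, and NR0B1 is the point nearest to the FSHB line.

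Markers of other cell types in the pituitary libraries were measured beside these values. The 4 pituicyte markers found of 5 were all lower, 1 of them at least 2-fold, and summed to 45.3 and 28.2 RPM. Corticotroph and melanotroph markers summed to 47773 and 19057, of which POMC made up 47518 and 18906. In this list 3 of 5 were at least 2-fold lower, namely POMC, AVPR1B and CRHR1 (log2 folds of -1.21, -2.00 and -1.59). TBX19 and PCSK2 lay within 2-fold, at 0.04 and -0.27. The pituitary background over the floor of 10 was 4.23% lower and 2.27% higher. Somatotroph markers summed to 63596 and 68642, the lactotroph marker PRL to 125598 and 154283, and the 4 stem and folliculostellate markers found of 5 to 265 and 235. Endothelial markers summed to 222 and 296 with 3 of 3 found above 0, fibroblast markers to 575 and 459 with 3 of 3 found below 0, red blood cell markers to 61.1 and 74.0, lymphocyte markers to 24.3 and 29.6 and macrophage markers to 88.8 and 81.8. The sums of the lymphocyte and macrophage lists hide opposite members. The B cell gene CD79A had a log2 fold of 0.76, but the T cell genes CD2 and CD3E were at -1.07 and -0.55, and CSF1R was at 1.49, but AIF1 and C1QA were at -0.53 and -0.11. The part of these differences in the subunit values was not tested.

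Outside the pituitary the subunit genes gave few reads, and every 95% interval of their anestrous to estrous ratio included 1. CGA gave 176 and 153 reads in the hypothalamus, a ratio of 0.897 (0.718 to 1.12), and 81 and 93 in the ovary, a ratio of 1.24 (0.914 to 1.70). FSHB gave 11 and 10 reads in the hypothalamus and 10 and 10 in the ovary. TSHB gave 3 and 3 reads in the hypothalamus and 1 and 4 in the ovary, where the ratio of 4.33 had an interval of 0.429 to 213. CGA was therefore within 2-fold in both tissues, and the other genes had means below 50 there. At a mean of at least 50, 1.29% of genes passed 2-fold upwards and 1.04% downwards in the hypothalamus, and 12.3% and 7.95% in the ovary. With equal totals the counts turned from 147 higher and 119 lower to 113 and 167 in the hypothalamus, and from 1343 and 867 to 1033 and 1242 in the ovary.

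Levels of a gene can be ordered over the 6 libraries as RPM computed from recovered reads, since the tables of the tissues were normalised separately. FSHB was at 1853 in the anestrous and 496 in the estrous pituitary, and between 0.608 and 0.718 in the other 4 libraries, which counting error does not separate. CGA was at 15782 and 11349 in the anestrous and estrous pituitary, at 11.5 and 9.68 in the estrous and anestrous hypothalamus and at 5.23 and 5.66 in the estrous and anestrous ovary. For TSHB the order of the pituitary libraries was the opposite, with 281 in estrus and 134 in anestrus, and the other libraries lay between 0.0646 and 0.243 on 1 to 4 reads each.

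These traces can be set against the pituitary library of the same state. CGA in the hypothalamus stood at 0.101% (0.0869% to 0.117%) of its pituitary level in estrus and at 0.0613% (0.0520% to 0.0718%) in anestrus, and in the ovary at 0.0461% and 0.0359%. PRL stood at 0.0769% and 0.0655% in the hypothalamus and at 0.0433% and 0.0344% in the ovary, and GH1 at 0.0674% and 0.0597%, and 0.0477% and 0.0414%. FSHB stood at 0.145% (0.0723% to 0.259%) in the estrous and 0.0341% (0.0164% to 0.0628%) in the anestrous hypothalamus, and at 0.130% and 0.0328% in the ovary. Its count outside the pituitary was 10 or 11 reads in every library, and its level in the pituitary was 496 RPM in estrus and 1853 in anestrus. The 7 anterior pituitary genes found of 9 summed to 448 and 190 RPM in the hypothalamus, where POMC is also made by neurons (4697 and 744 reads), and to 99.0 and 94.0 in the ovary, and none was at 0 in both libraries of either tissue. The source of these reads was not tested.

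**Figure D5:**
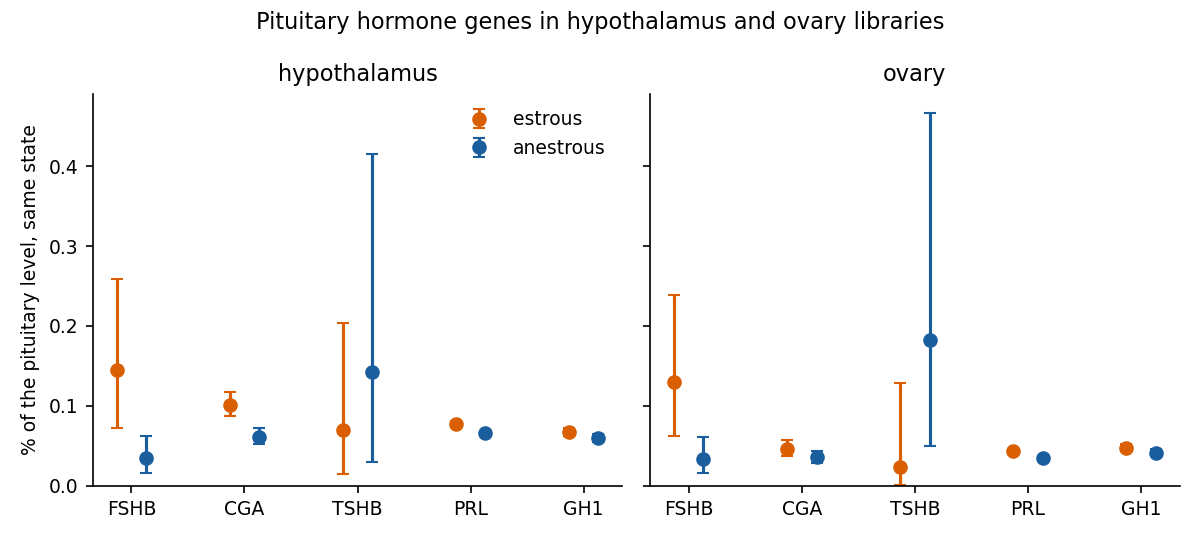
Points give the level of 5 hormone genes in the hypothalamus (left) and the ovary (right) as a percent of their RPM in the pituitary library of the same state, with 95% Poisson intervals for the count outside the pituitary. PRL and GH1 lie between 0.0344% and 0.0769%, and the TSHB intervals rest on 1 to 4 reads.

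In the ovary, both measured receptors of these hormones were lower in anestrus. FSHR, the FSH receptor of granulosa cells, was 2.05-fold lower on 490 and 221 ovarian reads (1.74 to 2.41). LHCGR, the luteinizing hormone receptor, was 4.76-fold lower on 1987 and 385 reads (4.27 to 5.33). All 7 ovarian markers, FSHR among them, were likewise past 2-fold downwards, with a median log2 fold of -2.46, and FSHR at -1.03 differed least. Over a mean of 10, 10.7% of all ovary genes passed 2-fold downwards and 13.6% upwards. STAR, CYP17A1 and INHA, genes of steroid-making and granulosa cells, were at -4.56, -3.83 and -2.46. The part of these marker differences in the receptor values was not tested. TSHR was not found by name.

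Profiles over the 6 libraries were compared by the root mean square difference of log2(RPM + 1), each gene centred on its own mean, among 9641 other named genes with a pituitary mean of at least 50. All genes were measured in the same 6 libraries, and differences between tissues enter this measure together with those between states. Nearest to CGA were PRL (0.17), GH1 (0.22), FSHB (0.85) and POMC (1.38). Among those nearest to FSHB were CGA (0.85), GH1 (0.95) and PRL (0.98). Among those nearest to TSHB were the GHRH receptor gene GHRHR (0.61), the keratin gene KRT18 (0.71) and the sodium channel gene SCNN1G (0.78), which had pituitary log2 folds of 0.23, 0.12 and 0.38, opposite in sign to TSHB.

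The genes next to the subunit genes were read from the RefSeq annotation of Sscrofa11.1, used for gene order only because the build of the deposited tables was not given in the sources used here. Neighbours were the nearest protein-coding genes on either side whose names occur in the tables. MPPED2 and KCNA4 flank FSHB and gave 458 and 479, and 37 and 23 pituitary reads, with ratios of 1.11 (0.973 to 1.26) and 0.659 (0.374 to 1.14) that include equal levels. ZNF292, beside CGA, was 1.23-fold higher (1.09 to 1.39), and HTR1E on the other side had 0 reads. TSPAN2, beside TSHB, had a ratio of 0.924 (0.774 to 1.10), and SYCP1 had 0 reads.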

How the data were processed

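The deposited tables hold, per tissue, a normalised signal for each Ensembl pig gene in both libraries, which per the file headers and labels is a DESeq normalised read count. TopHat2 2.1.0 is named per the submitters' processing notes, while the counter, genome build and strand setting are not given in the sources used here. Reads of overlapping genes or near-identical copies cannot be told apart. Division by the smallest value above 0 in a column gave whole numbers within 0.01 for 100% of values, and these were used as the reads per gene. P-values and adjusted p-values are the authors' own, per the file headers. All 6 libraries were assigned by label, and no value column was left unmapped.

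Ratios carry exact conditional binomial 95% intervals from the reads, and ratios between genes an exact conditional odds ratio interval (Python 3.11.15, scipy 1.17.1). Reads that carry no molecular identifier do not count independent molecules, so intervals and the limit of 3 reads for a count of 0 cover counting error only. The log2 fold used a pseudocount of 1, which understates differences of genes with few reads. A gene counted as 2-fold different at a log2 fold of at least 1 in size and a mean of at least 50, or 10 for list members. Lists are given without the subunit genes. Names came from the tables and then from a table of Ensembl names. The members and lists were chosen with earlier results of these data known. Named genes were the subunits, the family, the other hormones and hormone receptors, and up to 4 members per list with the largest log2 fold over a mean of 50 (hypothalamus for releasing factors, pituitary otherwise), and the 4 nearest profiles per subunit. Some genes that this rule names are left out of the text. Any further gene in the text was picked with its values known, as were the neighbours and the ratios to genes other than CGA. The call rule and intervals were tested on simulated reads with counting error only. The simulation held no variation between sows or libraries and says nothing of it. Count tests on the recovered reads (edgeR 4.0.16, DESeq2 1.42.0), with tissue as a block, use tissues in place of replicate sows and served as alternatives only.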

Additional observations from a re-analysis of the deposited data

How the results depend on the processing

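Of the pituitary log2 folds, FSHB was at 1.90, CGA at 0.48 and TSHB at -1.07 with equal library totals, and FSHB at 1.96 and CGA at 0.53 with equal totals after leaving out the 10 most read genes. A trimmed mean of log ratios and pseudocounts of 5 or 0.5 moved none of the 3 by more than its counting interval. In the hypothalamus and the ovary all 30 alternative values of the 3 genes stayed within counting error, although TSHB in the hypothalamus (-0.03) and FSHB in the ovary (-0.08) changed sign with equal totals. Scaling to equal totals moved the median log2 fold of all genes in the pituitary from 0.01 to -0.10 and in the ovary from 0.02 to -0.18. The ratios of FSHB and TSHB to CGA were 2.68 and 0.342 with a pseudocount of 5.

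With tissue as a block over all 6 libraries, log2 folds were 1.09 for FSHB, 0.24 for CGA and -0.57 for TSHB by edgeR (quasi-likelihood test, adjusted p = 0.986 for each) and 0.92, 0.26 and -0.29 by DESeq2 (adjusted p = 1.000 for each). These average the states over tissues in which the genes have few reads. At an adjusted p of 0.05 edgeR called 0 of 14444 genes (542 at an unadjusted p under 0.05) and DESeq2 46 of 16887.

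Counts of genes at least 2-fold higher and lower were, with no floor, 845 and 877 (hypothalamus), 965 and 1139 (pituitary), and 2534 and 2223 (ovary). With a floor of 200 they were 75 and 29, 48 and 84, and 880 and 501. When the authors' adjusted p also had to be 0.05 or less they were 67 and 31, 36 and 50, and 92 and 15.

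No paired analysis was possible because the labels carry no replicate numbers that pair sows across groups. The block above is on tissue. Leaving out a library was not run. Depth limits the values outside the pituitary, where FSHB and TSHB rest on 11 reads or fewer per library.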

Other observations

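The deposited tables assign the subunit genes to KEGG pathways, and the other pituitary genes of these pathways with a mean of at least 50 were counted after the data were seen, with no test. Of 45 genes of the GnRH signaling pathway, which holds FSHB and CGA, 1 was at least 2-fold lower, GNRHR, and none was 2-fold higher (median log2 fold -0.04). Of 32 genes of thyroid hormone synthesis, which holds CGA and TSHB, none was 2-fold different (median 0.07). Neuroactive ligand-receptor interaction holds all 3 subunits. Of its 60 other genes, 4 were at least 2-fold higher (CHRNA6, GABRD, HRH1 and MC3R) and 6 at least 2-fold lower (ADORA3, AGTR1, AVPR1B, CRHR1, GNRHR and NR3C1), beside 1.2% and 1.9% of all pituitary genes over that floor. Of 82 genes of cAMP signaling, which holds FSHB, 2 were at least 2-fold higher, ATP2B3, a calcium pump gene, and PPP1R1B, a phosphatase regulator gene. The same background of 1.2% higher and 1.9% lower stands beside the counts of each of these pathways.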
